A study of Mus musculus with 2 samples.

Results

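The adrenergic and muscarinic receptor genes Adrb1, Adrb3, Adra1a, Adra1b, Adra1d and Chrm2, through which noradrenaline, adrenaline and acetylcholine act on the heart, were examined in a map of accessible chromatin. They were taken by name from GENCODE M21, as 6 of 21938 protein-coding genes on the chromosomes of the peak lists. Accessibility was measured by DNase-seq, which sequences fragments released where DNase I can reach the DNA. The tissue was heart of male B6CASTF1/J mice, the first generation of a cross between C57BL/6J and CAST/EiJ, aged 14 days. There was 1 group of 2 biological replicates, with no treatment named and nothing to contrast it with, so no test was made. Replicate 1 is labelled as 3 males and replicate 2 without a number of animals, and both cite the same donor record. Pooling of hearts is not stated either way, and the spread between the replicates may be partly technical. Reads were placed on mm10, which is C57BL/6J sequence, and how reads of the CAST/EiJ parent were treated is not given in the sources used here.

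The β1 receptor (Adrb1), the main beta receptor in heart muscle, acts through the stimulatory G protein and cyclic AMP. It raises the rate and force of contraction. The β3 receptor (Adrb3) is best known from fat. The α1 receptors (Adra1a, Adra1b, Adra1d) act through Gq, phospholipase C and calcium, in heart muscle and in the smooth muscle of vessels. The M2 muscarinic receptor (Chrm2) carries the vagal signal: through the inhibitory G protein it lowers cyclic AMP and opens potassium channels of the sinus node and atria.

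The sequences at the gene starts are shown first, because 2 starts of the same gene differed in them. The RefSeq promoter table (GRCm38.p6, the assembly of mm10) held entries for 3 of the 6 genes, each running from 250 bases before the RefSeq start to 50 after it. Capitals mark bases inside footprints of both replicates, a footprint being a short stretch that the enzyme left uncut within accessible DNA. The α1B entries lie on the minus strand at chr11:43836440-43836739 (internal start) and chr11:43901188-43901487 (5' end of the gene record), the β1 entry on the plus strand at chr19:56721867-56722166, and the M2 entry on the plus strand at chr6:36387834-36388133. For Adra1d the stronger of its promoter peaks is shown, at chr2:131562721-131562900 on the minus strand.
Adra1b internal start: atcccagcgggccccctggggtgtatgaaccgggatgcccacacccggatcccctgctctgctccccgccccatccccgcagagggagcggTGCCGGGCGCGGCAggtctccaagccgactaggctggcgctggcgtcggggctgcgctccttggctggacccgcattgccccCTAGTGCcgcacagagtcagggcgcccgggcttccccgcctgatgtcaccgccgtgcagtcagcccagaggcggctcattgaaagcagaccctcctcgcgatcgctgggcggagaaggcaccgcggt
Adra1b 5' end: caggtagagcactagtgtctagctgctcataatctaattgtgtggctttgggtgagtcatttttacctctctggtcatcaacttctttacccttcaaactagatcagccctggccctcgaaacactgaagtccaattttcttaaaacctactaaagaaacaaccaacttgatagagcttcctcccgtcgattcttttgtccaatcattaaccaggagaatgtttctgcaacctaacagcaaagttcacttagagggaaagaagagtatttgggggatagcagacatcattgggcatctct
Adrb1: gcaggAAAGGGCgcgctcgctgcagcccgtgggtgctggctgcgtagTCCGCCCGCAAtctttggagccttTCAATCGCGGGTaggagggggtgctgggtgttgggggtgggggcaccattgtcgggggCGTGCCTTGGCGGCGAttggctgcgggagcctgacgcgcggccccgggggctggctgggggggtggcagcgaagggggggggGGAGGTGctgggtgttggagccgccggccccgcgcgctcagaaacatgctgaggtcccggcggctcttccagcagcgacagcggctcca
Chrm2: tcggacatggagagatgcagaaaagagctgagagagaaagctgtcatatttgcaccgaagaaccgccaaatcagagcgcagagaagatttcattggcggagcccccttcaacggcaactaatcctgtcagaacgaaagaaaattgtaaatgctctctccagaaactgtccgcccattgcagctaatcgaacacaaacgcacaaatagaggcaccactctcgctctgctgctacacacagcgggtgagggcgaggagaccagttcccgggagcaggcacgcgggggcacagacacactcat
Adra1d peak: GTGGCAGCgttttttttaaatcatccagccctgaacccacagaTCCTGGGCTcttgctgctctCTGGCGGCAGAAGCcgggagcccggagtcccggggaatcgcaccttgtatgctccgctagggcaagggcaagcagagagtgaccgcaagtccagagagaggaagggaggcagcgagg
The internal Adra1b entry was 71.3% G and C with 28 CpG dinucleotides, and 21 of its 300 bases lay in footprints of both replicates. The entry at the gene's 5' end was 42.3% G and C with 3 CpG and had no footprinted base in either replicate. Adrb1 resembled the former, with 72.3%, 28 CpG and 53 footprinted bases. The Chrm2 entry, with 52.7% and 16 CpG, had 9 footprinted bases in replicate 1 and 11 in replicate 2, none of them in common. In the Adra1d peak 31 of 180 bases were footprinted in both.

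The second set shows the strongest accessible region away from promoters in the windows of 3 genes. They were chosen because a match to the same motif, found in 4 of the 6 strongest such regions, lies wholly in a shared footprint of each. The remaining match is in a region overlapping the 3' end of Adra1d, which is not printed. A shared footprint of 29 bp, with 10 bases either side, holds that match too. Whether all its bases lie in the footprint was not counted. The printed regions are chr8:27253801-27253960 (minus strand) upstream of Adrb3, chr11:43783841-43784020 (minus strand) in an intron of Adra1b, and chr14:66791861-66792020 (plus strand) beyond the 3' end of Adra1a. Capitals are as above.
Adrb3 upstream region: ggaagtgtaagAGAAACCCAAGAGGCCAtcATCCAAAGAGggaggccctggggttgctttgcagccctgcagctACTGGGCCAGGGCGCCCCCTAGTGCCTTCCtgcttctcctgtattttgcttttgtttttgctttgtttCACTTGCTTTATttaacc
Adra1b intronic region: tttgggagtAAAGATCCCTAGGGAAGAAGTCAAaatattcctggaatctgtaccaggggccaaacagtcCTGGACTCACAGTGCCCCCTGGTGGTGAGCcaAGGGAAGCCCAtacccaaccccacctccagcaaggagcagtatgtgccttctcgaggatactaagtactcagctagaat
Adra1a downstream region: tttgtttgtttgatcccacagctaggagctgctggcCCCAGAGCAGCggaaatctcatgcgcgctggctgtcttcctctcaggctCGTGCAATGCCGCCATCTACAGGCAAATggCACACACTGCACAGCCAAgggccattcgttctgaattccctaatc
The footprinted bases number 69 of 160 at Adrb3, 65 of 180 at Adra1b and 57 of 160 at Adra1a. Each region holds a match to a core of the binding motif of the insulator protein CTCF (C, 3 bases of any kind, AG, 2 of any kind, GGC, on either strand), with all 11 bases inside a shared footprint. On the printed strands the matches read GCCCCCTAGTG from base 88 at Adrb3, GCCCCCTGGTG from base 83 at Adra1b and GCCATCTACAG from base 97 at Adra1a, counted from 1 at the 5' end.

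Every one of the 6 receptor genes had a peak at its promoter, called open here, in replicate 1, in replicate 2 and so in both. Of all protein-coding genes 70.4% did in replicate 1, 70% in replicate 2 and 68.8% in both, and read against that share the count of 6 says little about these genes. A promoter was taken as 1 kb either side of any annotated start, and its value as the highest peak signal there, on a scale the authors set by read depth. By that measure the genes fell into a higher group, Adra1b, Adrb1 and Adra1d, and a lower one, Adrb3, Chrm2 and Adra1a, with a gap between 2.34 and 1.07. In whole tissue, fewer cells with an open promoter and a less open promoter in each cell cannot be told apart.

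Adra1b, encoding the α1B receptor, reached 5.28 in replicate 1 and 3.68 in replicate 2 (4.48 ± 1.13, SD, n = 2). Adrb1 had 4.43 and 4.13 (4.28 ± 0.209). The range of Adrb1 lay inside that of Adra1b, so their order is not resolved. Adra1d, encoding the α1D receptor of arteries, had 3.32 and 2.34 (2.83 ± 0.693), below both in each replicate. Adrb3 had 0.887 and 1.07 (0.977 ± 0.129). Chrm2 had 0.695 and 0.716 (0.706 ± 0.0150), below Adrb3 in both replicates. Adra1a, encoding the α1A receptor, had 0.709 and 0.597 (0.653 ± 0.0795), and its range overlapped that of Chrm2.

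None of the 6 was among the strongly open promoters of this tissue. The median over the 15087 genes open in both replicates was 6.60, and all 6 lay below it. Among those genes Adra1b stood at percentile 37.4, Adrb1 at 36.1, Adra1d at 27.1, Adrb3 at 11.1, Chrm2 at 7.44 and Adra1a at 6.67. The upper 50% of peaks by signal left 4 of the 6 genes open in both replicates, against 62.3% of all genes, and lost Adra1a and Chrm2.

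**Figure D1:**
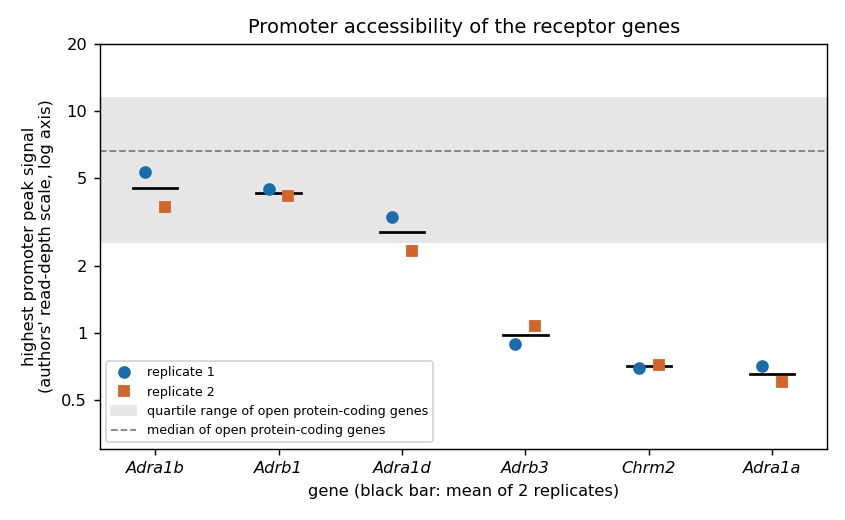
Highest promoter peak signal of each receptor gene in both replicates, on a log axis, with the mean as a black bar, the median of the open protein-coding genes as a dashed line and the range between their lower and upper quartiles in grey. Adra1b, Adrb1 and Adra1d stand between 2.34 and 5.28, and Adrb3, Chrm2 and Adra1a between 0.597 and 1.07.

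The promoter of Adra1b was open at an internal start, with no peak at the 5' end of the gene record. The gene (ENSMUSG00000050541.14) runs on the minus strand of chromosome 11 from 43774606 to 43901210. Transcripts Adra1b-201 and Adra1b-203 start at 43901210, where neither replicate had a peak within 1 kb. The nearest peaks lay 9508 bp away in replicate 1 and 11020 bp away in replicate 2, with signals of 0.348 and 0.322. The lists of bases with a false discovery rate under 0.05 held none of the 2001 bases around that start in either replicate. Transcripts Adra1b-202 and Adra1b-204 start at 43836332, which is 64878 bp further along the gene. There the lists held 858 and 1191 bases, and the peak chr11:43836461-43836680, whose near edge is 129 bp upstream, gave the gene its value. The RefSeq start of the printed internal entry, 157 bp upstream of the GENCODE one, lay inside that peak. The RefSeq start at the other end, 27 bp from the GENCODE one, had no accessible region over any base of its entry.

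A 5' end without a peak in an open gene was uncommon. Of the 15087 genes open in both replicates, 831 had no peak in either replicate at the 5' end of the record. These made up 3.79% of all 21938 protein-coding genes, and Adra1b and Adrb3 were among the 831. With 5' ends alone 4 of the 6 receptor genes were open in both, against 64.2% of all genes. Of all 7159 genes with no 5' end peak in either replicate, open elsewhere or not, 97.2% had no listed base there in either. That share was not computed for the 831 alone.

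Adrb3 (ENSMUSG00000031489.15), from 27225776 to 27250616 on the minus strand of chromosome 8, had no peak within 500 bp of any of its 5 annotated starts. The peak that counted, chr8:27227501-27227760, lies inside the gene, 734 bp downstream of the start of Adrb3-202 and 823 bp downstream of that of Adrb3-203. The start of an antisense RNA, Gm45470, lies within 1 kb of it as well. Around those 2 starts the listed bases numbered 327 and 238 in replicate 1 and 491 and 402 in replicate 2. Around the starts of Adrb3-201, Adrb3-204 and Adrb3-205 no base was listed in either replicate. With windows of 500 bp Adrb3 had no promoter peak, which left 5 of the 6 genes open against 67.2% of all genes, whereas with windows of 2 kb all 6 were open, against 71%.

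At Adrb1 (ENSMUSG00000035283.5, chromosome 19, 56722199 to 56733113, plus strand) both starts were flanked by peaks. The peak chr19:56721821-56722160, just upstream of Adrb1-201, gave the values above, and 5 shared footprints lay in it. It covered 294 of the 300 bases of the printed entry, the RefSeq start among them. A further peak, chr19:56723461-56723840, ended 23 bp before the start of Adrb1-202 and had 2.70 and 2.57. Between them chr19:56722641-56723120 had 0.901 and 1.19. Listed bases around Adrb1-201 numbered 1396 in replicate 1 and 1785 in replicate 2, more than at any other start of the 6 genes.

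At Adra1d (ENSMUSG00000027335.9; chromosome 2, 131545850 to 131562283, minus strand) the stronger peak did not lie on the start. The printed peak, with 3.32 and 2.34, ended 438 bp upstream of it, whereas the region over the start itself, chr2:131562221-131562640, had 1.25 and 1.41. The antisense RNA Gm14285 overlaps this end of the gene. It has a start within 1 kb of the region over the Adra1d start, but none within 1 kb of the stronger peak. Which of the 2 genes the signal of these peaks belongs to was not tested. The upstream peak held 3 shared footprints and the region over the start none.

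The promoters of Adra1a and Chrm2 were the weakest of the 6 by the mean of both replicates. Adra1a (ENSMUSG00000045875.13; chromosome 14, 66635251 to 66771168, plus strand) has 6 starts within 305 bp, all in a region of 1340 bp, chr14:66635201-66636540, made of 3 weak peaks in each replicate. A stronger peak lay just beyond the promoter window, at chr14:66636721-66637000 with 1.28 and 0.859, and windows of 2 kb raised the gene's mean from 0.653 to 1.07. Chrm2 (ENSMUSG00000045613.9; chromosome 6, 36388084 to 36528414, plus strand) had its start inside chr6:36387843-36388301, with the values above, followed by chr6:36388501-36389103 with 0.582 and 0.591. Here too a stronger peak, chr6:36389241-36389520 with 0.901 and 0.967, lay just outside. The opposing lincRNA 9330158H04Rik has a start within 1 kb of that peak and of both promoter regions of Chrm2. Which of these genes the signal belongs to was not tested. In the smaller of the deposited peak sets the promoter of Chrm2 had a peak in replicate 1 alone, which left 5 of 6 genes open against 65.3% of all genes. The start of Chrm2-202 itself lay under a peak in replicate 2 alone, and the nearest peak of replicate 1 was 57 bp away. Listed bases around that start numbered 1215 in replicate 1 and 760 in replicate 2.

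**Figure D2:**
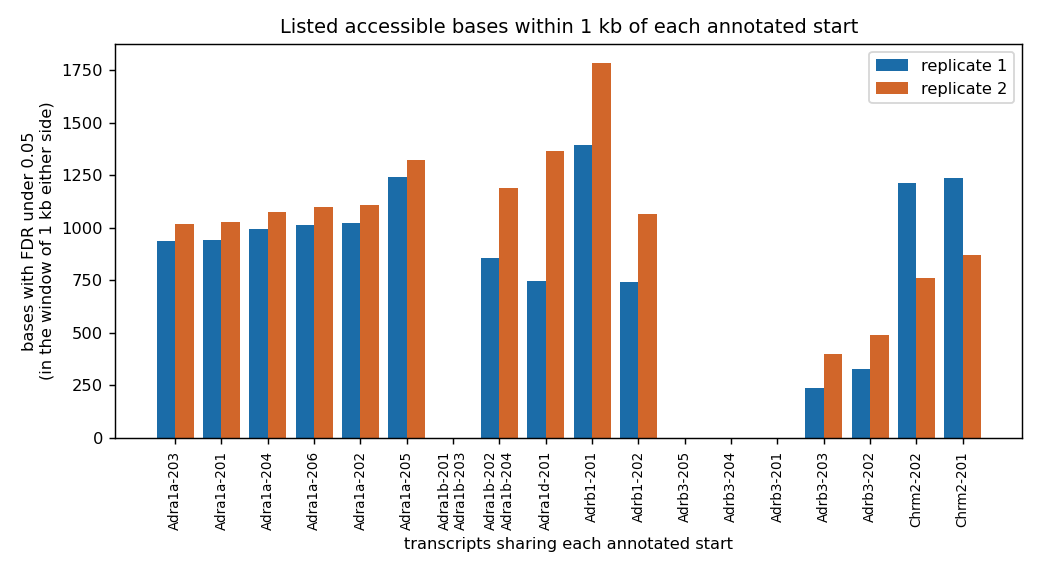
Bases with a false discovery rate under 0.05 among the 2001 bases around each annotated start, as bars for replicates 1 and 2, with transcripts that share a start grouped. The start of Adra1b-201 and Adra1b-203 and the starts of Adrb3-205, Adrb3-204 and Adrb3-201 have no listed base, while Adrb1-201 has 1396 and 1785.

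Base composition differed between the starts. Within 500 bp either side, the ratio of observed to expected CpG was 0.845 at Adrb1-201, 0.816 at Adra1d and 0.671 at the internal start of Adra1b. It was 0.305 at the 5' end of Adra1b and between 0.171 and 0.422 at the 5 starts of Adrb3. Adra1a with 0.591 to 0.656 and Chrm2 with 0.587 to 0.612 lay between, although their promoter signal was below that of Adrb3. Over all protein-coding genes the median was 0.712 at 5' ends with a peak in both replicates and 0.168 at those with a peak in neither.

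Around the 6 genes, from 50 kb before to 50 kb after each, the merged peaks formed 125 regions. Of these 81 (64.8%) had a peak in each replicate, close to the 65.9% of all 158036 regions. A further 28 were found in replicate 1 alone and 16 in replicate 2 alone. These were weak, with a median signal of 0.422, and the strongest of them, 1.26 in replicate 1, lay in the promoter of Eif4ebp1 beside Adrb3. The 81 shared regions had a median signal of 0.852, against 0.991 for all shared regions. Replicate 1 was higher in 67 of the 81, as it was in 80.8% of all shared regions, and the log2 ratio between them, replicate 1 over replicate 2, had a median of 0.34 against 0.31 overall. All but 1 of the 81 lay within 2-fold of that median. The exception was a weak region in the body of Got1l1 beside Adrb3, chr8:27206432-27206735, with 0.362 in replicate 1 and 0.633 in replicate 2.

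**Figure D3:**
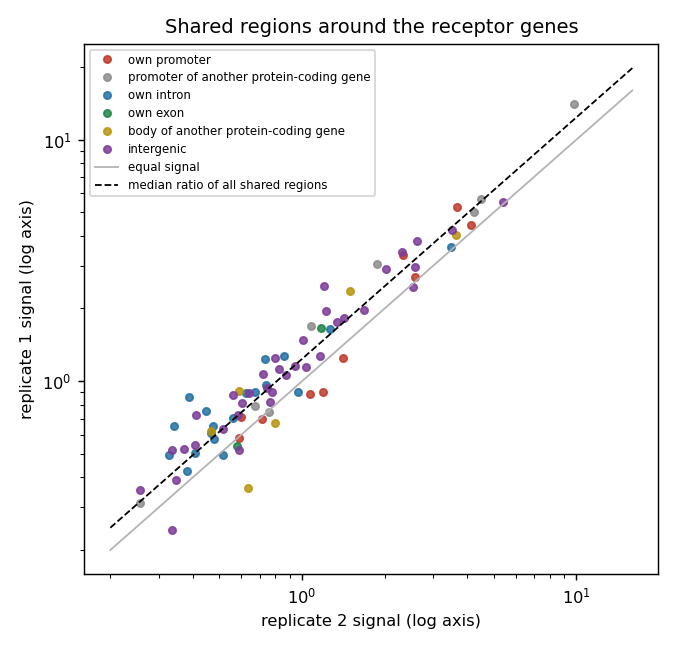
Signal of the 81 shared regions around the receptor genes in replicate 2 (x, log axis) and replicate 1 (y, log axis), coloured by position, with lines for equal signal and for the median ratio of all shared regions. Replicate 1 is higher in 67 of the 81, and all but 1 lie within 2-fold of the median ratio of the 81.

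The genes differed in how densely accessible regions lay around them. Adrb1 had 17 shared regions in its window, or 15.3 per 100 kb, at percentile 88.9 of protein-coding genes. Adra1d had 13 (11.2 per 100 kb), Adrb3 12 (9.61) and Adra1b 18 (7.94). Adra1a had 13 in a longer window (5.51 per 100 kb) and Chrm2 had 8 (3.33), at percentile 27.6. The median gene had 9 shared regions and 6.69 per 100 kb, so Adra1a and Chrm2 lay below it in density and the other 4 genes above. Counts within a window include regions of neighbouring genes. At Adrb3 4 of the 12 were at promoters of Eif4ebp1 and Got1l1, and a further 2 lay in the body of Got1l1. With flanks of 10 kb the shared regions numbered 3 at Adrb1, 6 at Adra1d, 4 at Adrb3, 11 at Adra1b, 7 at Adra1a and 7 at Chrm2. The order of the genes by count thus depends on the flank.

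By position, 10 of the 81 shared regions lay at a promoter of the receptor gene itself, 8 at that of another protein-coding gene, 2 in an exon and 19 in an intron of the receptor gene, 6 in the body of another protein-coding gene and 36 between protein-coding genes. All 14 regions of Adrb1 outside its promoters were intergenic, since its gene body past the promoters held no shared region. Of the 8 at Chrm2, 5 were intronic, and of the 18 at Adra1b, 7 were. Promoter regions of the receptor genes had a median signal of 1.19, intergenic ones 0.970 and intronic ones 0.623.

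**Figure D4:**
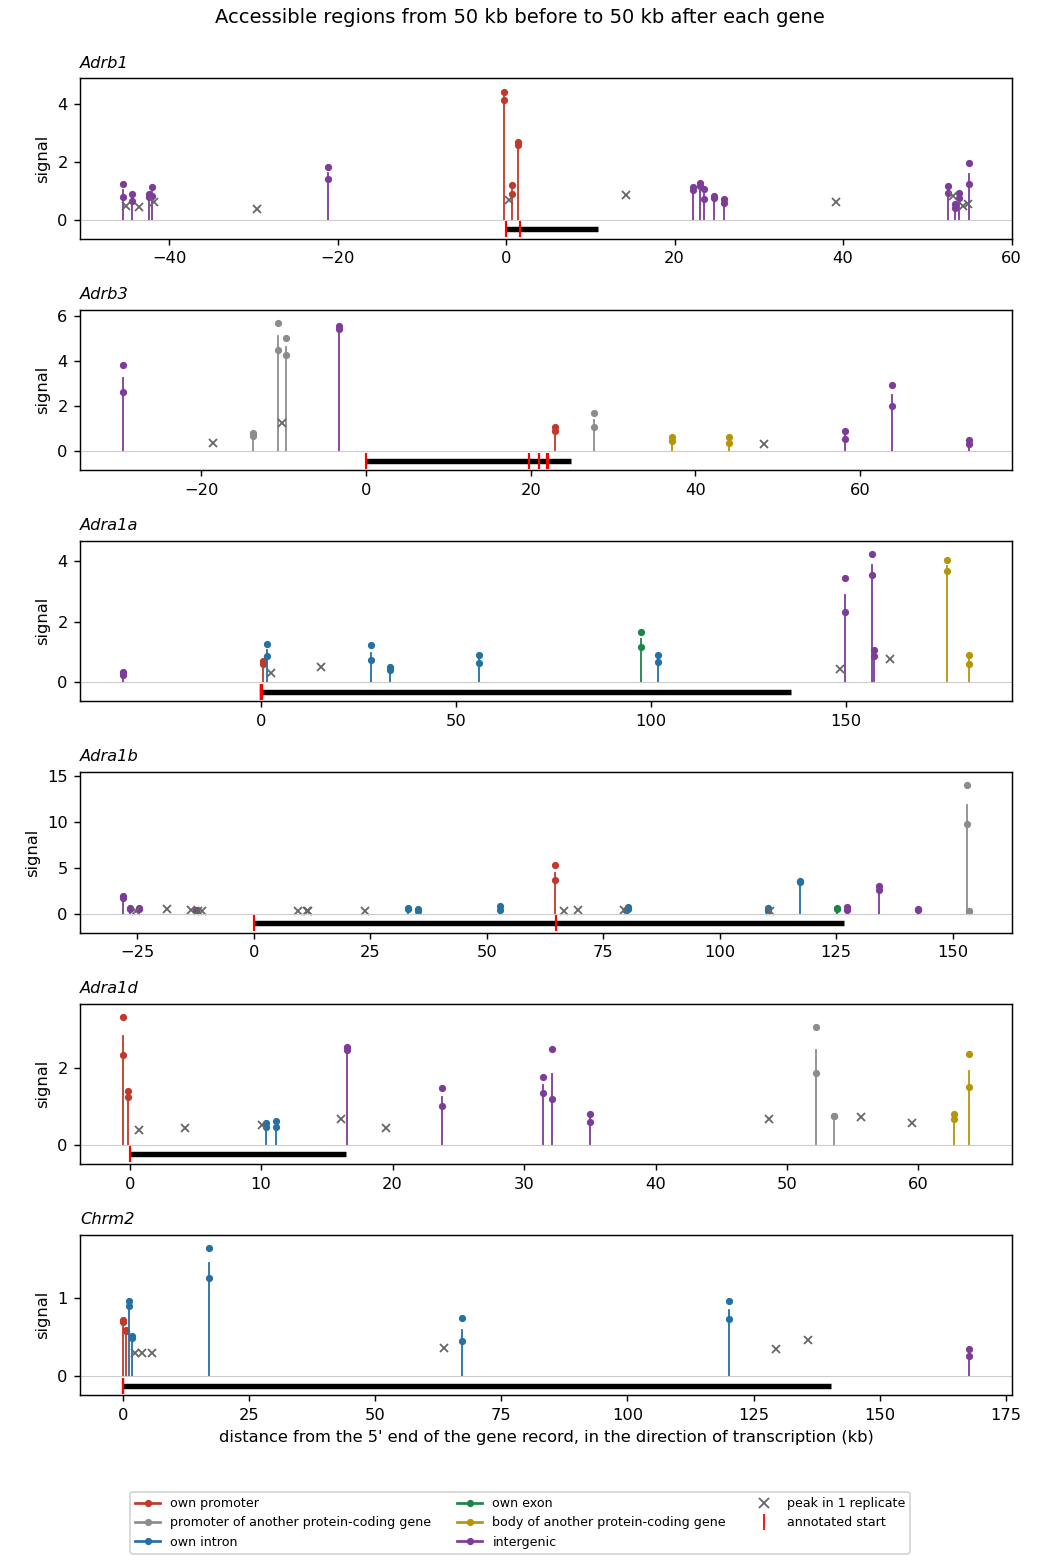
Accessible regions around each gene by distance from the 5' end of the gene record in kb along the direction of transcription (x) and peak signal (y, own scale per gene), with points for both replicates, a line to their mean, crosses for regions in 1 replicate, a black bar for the gene and red ticks for annotated starts. The promoter of Adrb1 is the highest region in its window, as is that of Adra1d by the mean, whereas at Adrb3, Adra1a, Adra1b and Chrm2 the highest region lies away from the gene's promoter, at Adra1b in the promoter of Ttc1.

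By the mean of both replicates, Adrb1 and Adra1d were strongest at their own promoters. The strongest region of Adrb1 away from promoters, chr19:56700921-56701120, lay 21079 bp upstream and had 1.82 and 1.43, less than its promoter in both replicates. That of Adra1d, chr2:131545681-131545880, lay at the 3' end of the gene with 2.46 and 2.53. It was above the promoter in replicate 2 (2.34) and below it in replicate 1 (3.32), and with 5 shared footprints it was among the most footprinted of the 81.

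At Adrb3, Adra1a and Chrm2 regions away from the promoter were stronger than the promoter in both replicates. The printed upstream region of Adrb3 had 5.52 and 5.39 against 0.887 and 1.07 at the promoter. It lay 3185 bp upstream of the 5' end of the record and 24213 bp upstream of the start of Adrb3-201. Nearby, the promoter of Eif4ebp1, an inhibitor of translation initiation, had regions of similar strength, with 5.01 and 4.24 and with 5.68 and 4.48. The printed region of Adra1a, with 4.21 and 3.52 against 0.709 and 0.597 at the promoter, lay past the 3' end of the gene in the lincRNA Gm10032. A region near the start of that lincRNA had 3.43 and 2.32, and one in the body of Dpysl2 had 4.02 and 3.65.

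Inside Adra1a the strongest region was exonic, chr14:66732561-66732940, with 1.67 and 1.18. The strongest region of Chrm2, chr6:36405141-36405340, was intronic, 17057 bp downstream of the 5' end, with 1.65 and 1.27 against 0.695 and 0.716 at the promoter. Of its other intronic regions, chr6:36507981-36508280 had 0.965 and 0.740, and chr6:36455161-36455340, with 5 shared footprints, had 0.752 and 0.448. In Adra1b the printed intronic region had 3.58 and 3.48, below the internal promoter in both replicates. The strongest region in any of the 6 windows belonged to a neighbour, with 14.0 and 9.77 at the promoter of Ttc1 beyond the 3' end of Adra1b.

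Footprints were counted in the same windows. Replicate 1 had 54 at Adrb1, 37 at Adrb3, 53 at Adra1a, 46 at Adra1b, 44 at Adra1d and 33 at Chrm2. Replicate 2 had 56, 45, 42, 60, 47 and 17 in the same order. Chrm2 thus had more in replicate 1, 33 against 17, while Adra1b and Adrb3 had more in replicate 2. Footprints of replicate 1 that touched 1 of replicate 2 numbered 19 at Adrb1, 30 at Adrb3, 23 at Adra1a, 22 at Adra1b, 22 at Adra1d and 11 at Chrm2. Per 100 kb of window Adrb3 had the most, with 24.0, and Chrm2 the fewest, with 4.58, and the median gene had 14.2. These counts include footprints in promoters of neighbours, among them Eif4ebp1 and Got1l1 beside Adrb3. In gene bodies alone, which differ in length, shared footprints numbered 2 at Adrb1, 2 at Adrb3, 13 at Adra1a, 9 at Adra1b, 2 at Adra1d and 11 at Chrm2. In total 127 of the 267 footprints of replicate 1 (47.6%) were shared, against 56.2% of all 350009.

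Among short consensus words searched on both strands, the Sp1 site GGGCGG was the one most often found at the starts. It occurred in 3 of the 4 printed RefSeq entries, all but that of the Adra1b 5' end, and in 35.7% of 32851 RefSeq promoter entries. In the Adrb1 entry its match CCGCCC, from base 49, lay wholly in a shared footprint, while those of Chrm2 and of the internal Adra1b entry lay outside. The Adra1b entry at the 5' end held TGAGTCA, a match to the AP-1 word TGANTCA that 7.81% of entries have. The Adrb1 entry held the shorter CRE word TGACG from base 161, outside any shared footprint, as 20.8% of entries do. The full CRE TGACGTCA, a site of factors that answer cyclic AMP, occurred in none of the 4 entries and in 1.79% of all.

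In the shared regions, taken as the 200 bases at their centre, the words of heart factors were counted in the same way. AGATAA, bound by GATA factors, occurred in 9 of 81 regions (11.1%, and 6.72% of all shared regions), 4 of them at Adra1a. GGAATG, bound by TEAD factors, occurred in 12 (14.8%, all 11.9%), 5 of them at Adrb1. Sp1 words were in 11 (13.6%, all 20.1%), E-boxes CAGCTG in 11 (13.6%, all 22.0%) and the shorter CRE word in 11 (13.6%, all 12.5%). AP-1 was in 5 (6.17%, all 7.54%), the ETS word CCGGAAG in 3 (3.70%, all 3.93%) and the MEF2 motif in 2 (2.47%, all 2.05%). The only full CRE was in the Ttc1 promoter. No region held the glucocorticoid receptor motif, the ERR word TCAAGGTCA, the TBX word AGGTGTGA or the CArG box, which occur in 0.794%, 0.355%, 0.506% and 0.897% of all shared regions. The shorter word lies within each full CRE, and both count.

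The CTCF core was searched after the printed footprints had been seen, so its counts are a description. It occurred in 23 of the 81 regions (28.4%) and in 29.1% of all shared regions. Split by signal, the regions away from promoters were uneven: 8 of the 9 with a mean above 2 held the core, and 10 of the 54 weaker ones. Over all shared regions away from promoters the core was in 6854 of 13771 (49.8%) above that limit and in 15590 of 62377 below it. The limit of 2 was likewise chosen after the values were seen. Of those 9, the Dpysl2 region beside Adra1a had no core and held AGATAA. The 8 lay 3 at Adrb3, 2 at Adra1a, 2 at Adra1b and 1 at the 3' end of Adra1d.

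Of the 127 shared footprints, with 10 bases either side, 17 held the core (13.4%, all shared footprints 10.4%). Those 17 had a median length of 28 bp, against 12 bp for the 127, and over the whole genome footprints with the core also had a median of 28 bp. The internal Adra1b entry holds GCCCCCTAGTG from base 169, the same 11 letters as the Adrb3 upstream region, with 6 of the 11 bases in a shared footprint. In the Adra1a region the core overlaps GCCGCCAT, a match to the YY1 word ATGGCGGC searched at the same time, from base 94. A match shows only that the letters are there, and binding was not measured.

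Of 49 other genes of the same signalling pathway 42 were open in both replicates, beside 68.8% of all protein-coding genes, so an open promoter is the common state and the counts by role below are to be read against that share. A further 2 were open in a single replicate and 5 in none, and the median signal was 4.93 against 2.86 for all protein-coding genes. All 6 G protein genes were open, led by Gna11, a Gq-class α subunit, with 28.2 and 22.4. All 6 cyclase and phospholipase genes were open, led by the adenylyl cyclase gene Adcy9 with 11.6 and 14.5. All 6 kinase genes were open, led by Prkaca, a catalytic subunit of protein kinase A, with 15.1 and 13.5. All 6 genes of desensitisation were open, led by Arrb2, encoding β-arrestin 2, with 17.5 and 17.8.

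Phosphodiesterase genes, which end the cyclic AMP signal, were open in 4 of 4, led by Pde3a with 4.90 and 4.97. Genes of effector channels and calcium cycling were open in 5 of 5 but with a median of 1.11, led by the calcium release channel gene Ryr2 with 3.10 and 2.77. Kcnj3 and Kcnj5, subunits of the potassium channel that the M2 receptor opens, were also weakly open. Kcnj3 had 0.929 and 0.806, and Kcnj5 had 0.830 and 0.591 and no promoter peak in the smaller peak sets. Both were picked out after their values were seen.

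Of 7 other adrenergic and muscarinic receptor genes 5 were open in both replicates, with a median over the 7 of 0.776. Adra2b, an α2 receptor that lowers cyclic AMP, was the highest with 6.30 and 5.07, above all 6 genes described here in both replicates. Chrm1, the M1 receptor of neurons, had no promoter peak, and Chrm5 had one in replicate 1 alone. Genes for making and removing the transmitters were open in 4 of 9, led by Ache, the enzyme that breaks down acetylcholine, with 11.0 and 7.44. Th and Dbh, of noradrenaline synthesis, and Chat, of acetylcholine synthesis, were among 4 with no promoter peak in either replicate, and Slc5a7, the choline transporter, had one in replicate 1 alone.

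**Figure D5:**
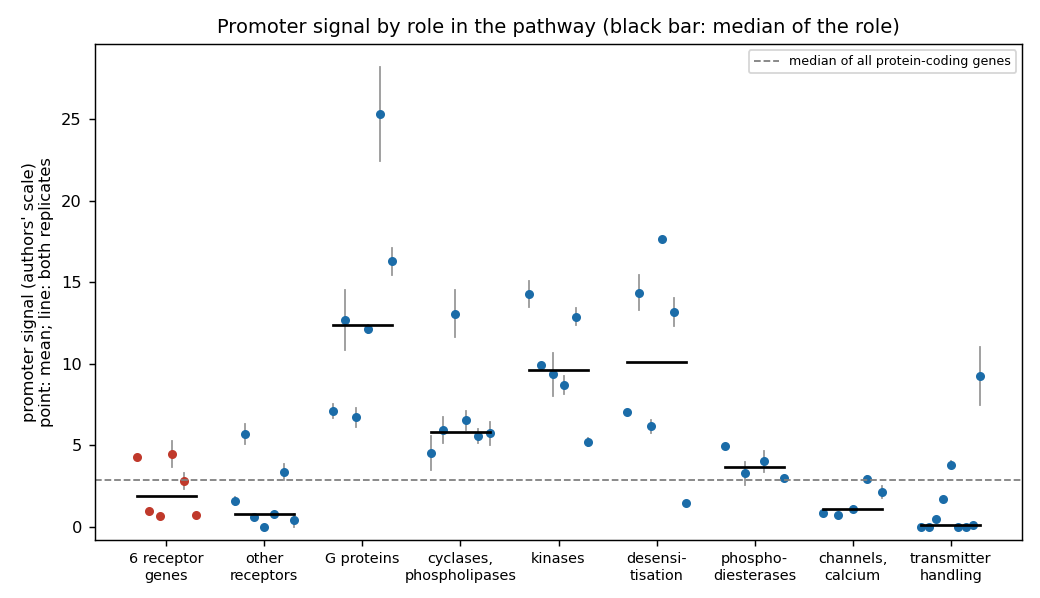
Promoter signal of the 6 receptor genes (red) and of 49 pathway genes by role (blue), each point the mean of 2 replicates with a line between both values, a black bar for the median of the role and a dashed line for the median of all protein-coding genes. The receptor genes have a median of 1.90, below G proteins (12.4), desensitisation (10.1), kinases (9.62), cyclases and phospholipases (5.82) and phosphodiesterases (3.64), and above channels and calcium cycling (1.11), other receptors (0.776) and transmitter genes (0.113).

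The tissue label was set against marker genes of the cells that heart tissue can hold. Promoters were open in both replicates for 4 of 4 cardiomyocyte genes, 3 of 3 of smooth muscle, 3 of 3 of endothelium and 3 of 3 of fibroblasts. They were open for 2 of 4 genes of adipocytes, with Adipoq at no peak, 1 of 3 of leukocytes and 0 of 3 of hepatocytes. Of all protein-coding genes 68.8% were open in both replicates, and read against that share these small counts say little about the cells present. Which of these cells carried the open receptor promoters was not tested. The lower peak signals were whole multiples of a step (tolerance 0.05 of it), which was 0.00709 for replicate 1 and 0.00597 for replicate 2. The weakest peaks in the receptor windows stood 34 and 43 steps above zero.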

How the data were processed

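DNase-seq peaks, footprints and lists of accessible bases of 2 heart replicates were used as deposited, all on mm10. Peak signal is on a read-depth scale set by the authors, per the deposited notes, and its exact form is not stated. The deposited false discovery rates (q-values) cover runs of bases and stop below 0.05. The footprint lists made by the authors were used as intervals only. Each set was made per replicate. Of callers, versions and read totals nothing is given in the sources used here. Depth is therefore unknown, and no interval for counting error is given.

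The larger peak set of each replicate was the main one. Overlapping or touching peaks were merged into regions, shared regions had a peak in each replicate, and the highest peak gave the value. A promoter was the 1 kb on each side of a GENCODE M21 start, a window the gene with 50 kb either side. Densities are per 100 kb. Motifs were searched in the 200 bases at each region's centre and in footprints with 10 bases either side. All sequences come from RefSeq's GRCm38.p6.

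The genes named are the 6 receptors, the highest and up to 3 closed pathway genes per role, neighbours with a start or body under a region, and each gene's promoter peaks and strongest other shared region; others were picked after their values were seen. Members and lists were chosen with earlier results of these data known. Means and SDs are over 2 replicates. On simulated data 100% of 2000 promoter calls and 100% of 3000 planted motifs were recovered. Alternatives covered peak sets, windows, flanks, overlap rules and each replicate alone. Python 3.11.15, numpy 2.4.6, pandas 2.3.3 and matplotlib 3.10.9 were used.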

Additional observations from a re-analysis of the deposited data

How the results depend on the processing

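No paired analysis was possible because the study has 1 group. The count of 6 open receptor genes stayed between 4 and 6 under every alternative tried, and each replicate alone gave 6. The median promoter signal of 1.90 fell to 0.679 with 5' ends only and rose to 2.86 with promoter peaks summed, and each replicate alone gave 1.70 to 2.10. The 81 shared regions became 49 in the smaller peak sets, 38 with flanks of 10 kb, 30 in gene bodies alone and 43 with the upper 50% of peaks, while single replicates held 99 to 113. The 127 shared footprints became 69 with flanks of 10 kb and 39 in gene bodies, and each replicate alone held 267, since those counts need no match. Narrower flanks and stricter sets hold fewer features by construction. Of 126 alternatives for single genes 50 moved a value by more than its spread or 1.5 times. Adra1b and Adrb3 have a promoter signal of 0 at their 5' ends alone, and Adrb3 also with windows of 500 bp. With 2 replicates of 1 group, an SD rests on 1 difference, an order of genes that differ by less than it is not resolved, and how CAST/EiJ reads aligned could alter any peak and was not tested. Read depth is unknown, so a gene with no peak is not shown to be closed in every cell.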
